A study of Mus musculus with 4 samples.

Results

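Elastic fibres give arteries, valves and the cardiac interstitium their recoil. Tropoelastin is deposited on a scaffold of fibrillin microfibrils, fibulins and microfibril-associated glycoproteins help to place it there, and lysyl oxidases cross-link it into an insoluble polymer. In the heart these genes are expressed mainly by fibroblasts and vascular smooth muscle cells. The set described here holds 10 genes: Eln, Fbn1, Fbln1, Fbln5, Mfap4, Mfap5, Lox, Loxl1, Ltbp2 and Adamtsl2. Every probe that the platform annotation names for one of them was taken, which gave 11 probes of 9 genes, out of 23978 named probes of 16593 genes on the array. Fbn1, the fibrillin of the adult microfibril, had no named probe and was not analysed here.

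RNA came from whole hearts of C57Bl6 mice aged 8 to 9 weeks, in 4 groups. The amount of tissue given for each sample was 30 mg. CM MRKO mice carried MR flox/flox alleles of the mineralocorticoid receptor with MLC2v Cre, which removes the receptor from cardiomyocytes, and the WT mice carried MR flox/flox alleles without Cre. Mice of each genotype received either DOC/salt (the mineralocorticoid deoxycorticosterone with salt) or vehicle for 8 days, and the labels describe all of them as uninephrectomised. The receptor was not deleted in fibroblasts, smooth muscle or other non-myocyte cells by this design. For each group, equal amounts of RNA from 8 hearts were combined and run on a single Illumina bead array. The differences therefore have no replicate check, and no p-value is given. In such whole-heart RNA, fewer cells of a type and less RNA per cell cannot be told apart. The words higher and lower are used as calls for normalized differences of 1.5-fold or more. As a measure of error, the technical spread is the SD of a log2 difference between probes of the same gene; it holds no spread between animals.

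Array brightness was uneven. The median intensity as deposited lay between 91.5 and 102.7, and the 75th percentile was 120.2 on the WT vehicle array against 147.6 to 161.4 on the other 3. Of 5471 genes detected on all arrays, 3.09% lay at least 1.5-fold below the other 3 arrays on the WT vehicle array after normalization. Differences of the elastic fibre genes that use that array are therefore given on both scales, normalized and deposited. Of 8 cardiomyocyte markers, 5 were detected on all arrays, among them Myh6, the main cardiac myosin heavy chain of the adult mouse, at 10950 to 16809. Ryr2 was detected on none, Tnnt2 had no named probe, and Pln, the gene of the calcium pump inhibitor phospholamban, read 94.6 on the WT vehicle array, under the limit, and 234.9 to 258.4 on the others. The deleted receptor gene had no named probe, so the genotype labels were not checked by their target.

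Of the 9 genes with a probe, 7 were detected on all 4 arrays and 2 on none. Fbln5 encodes fibulin-5, which tethers tropoelastin and the oxidase Loxl1 to microfibrils, and its intensities of 93.7 and 85.3 in CM MRKO hearts (DOC/salt, vehicle) and 75.4 and 82.8 in WT hearts were under every detection limit. Ltbp2, a microfibril-bound protein of the latent TGF-beta binding protein family, read 103 and 102.9 in CM MRKO hearts and 106.8 and 89 in WT hearts, also undetected. The detection limits lay between 108.8 and 121.8. No fold is given for these 2 genes.

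**Figure D1:**
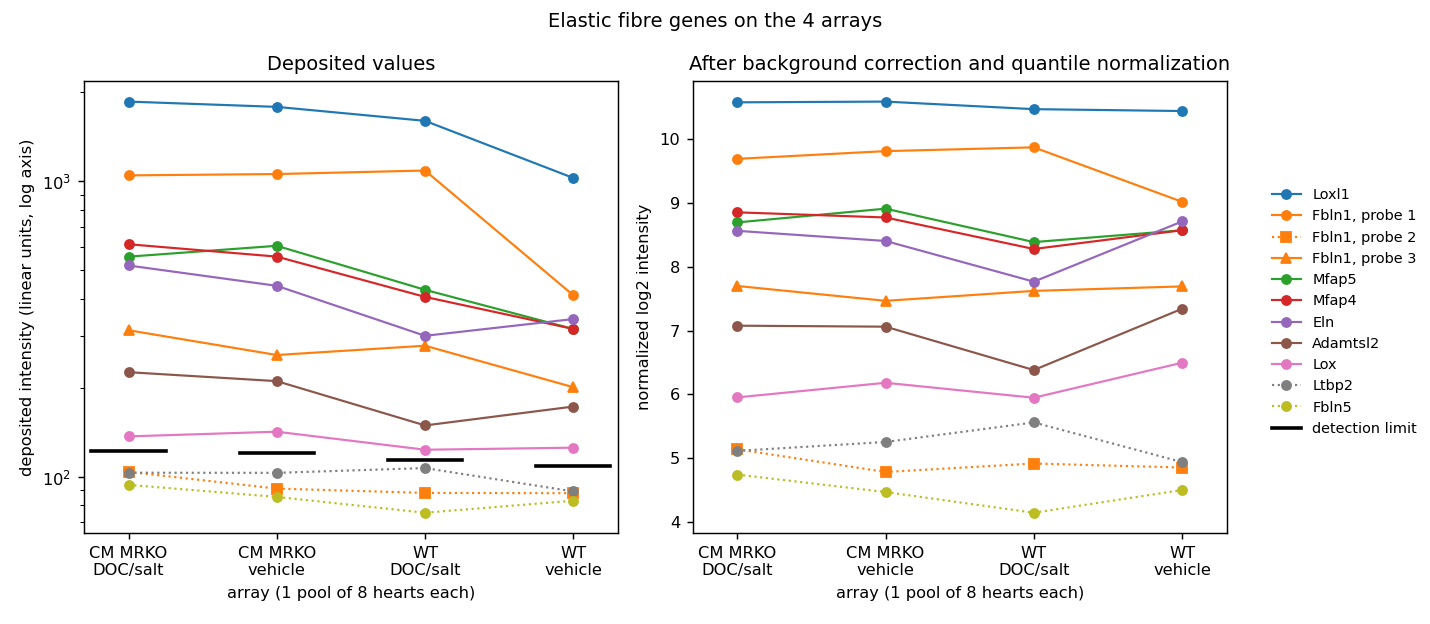
Intensity of the 11 elastic fibre probes on the 4 arrays, as deposited (left, log axis, black bars mark each array's detection limit) and after background correction and quantile normalization (right, log2). Solid lines are probes detected on all arrays and dotted lines probes detected on none; Eln and Adamtsl2 were lowest on the WT DOC/salt array on both scales.

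Eln, the tropoelastin gene, had intensities of 518 after DOC/salt and 442.1 with vehicle in CM MRKO hearts, against 299.4 after DOC/salt and 341.2 with vehicle in WT hearts. The WT DOC/salt pool was the lowest of the 4 and both CM MRKO pools were the highest. After normalization the Eln values were 8.56 and 8.40 on the log2 scale in CM MRKO hearts (DOC/salt, vehicle) and 7.77 and 8.71 in WT hearts. The WT vehicle pool thus stood below both CM MRKO pools on the deposited scale and above them on the normalized scale, while the WT DOC/salt pool was last on both. The 3 upper normalized values lay within 0.31 of one another, which is inside the technical spread of 0.33 for differences that use the WT vehicle array. The WT DOC/salt value lay 0.64 below the next one.

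Adamtsl2 encodes a secreted microfibril-associated protein that binds fibrillin-1 and is mutated in human geleophysic dysplasia. Its intensities were 225.5 after DOC/salt and 210.3 with vehicle in CM MRKO hearts, against 148.9 after DOC/salt and 172.5 with vehicle in WT hearts. The order of the pools was the same as for Eln on either scale. After normalization the Adamtsl2 value in WT DOC/salt hearts lay 0.68 below the lowest of the other 3 on the log2 scale. Both genes had their largest deposited signals in CM MRKO hearts, whose arrays were also the brighter ones. On that scale the genotype difference of the median gene was 0.13 under DOC/salt and 0.44 with vehicle. Under DOC/salt Eln was at 0.79 and Adamtsl2 at 0.60, and with vehicle they were at 0.37 and 0.29.

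On the WT DOC/salt array, 6 of 5471 genes (0.110%) lay at least 1.5-fold below each of the other arrays after normalization, and Eln and Adamtsl2 were among them. The other 4, named after their values were seen, were Nppb, which encodes B-type natriuretic peptide, Tnfrsf12a, the receptor of the cytokine TWEAK, the kinase gene Mtor and the tubulin gene Tubb2b. On the deposited values the margin below the next array was smaller, -0.19 on the log2 scale for Eln and -0.21 for Adamtsl2, and Tubb2b was not the lowest there.

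Promoter sequences from RefSeq (GRCm38.p6) were at hand for 5 of the 10 genes. The 250 bases before the annotated start are shown for Adamtsl2, the only called gene in the genotype comparison under DOC/salt with an entry, and for Fbln1, which differed little there. Both lie on the plus strand, Adamtsl2 at chr2:27079129-27079378 and Fbln1 at chr15:85205699-85205948. Capitals mark TATAAA on the gene strand and CAGAC, the core of SMAD binding elements, on either strand (GTCTG on the minus strand).
Adamtsl2: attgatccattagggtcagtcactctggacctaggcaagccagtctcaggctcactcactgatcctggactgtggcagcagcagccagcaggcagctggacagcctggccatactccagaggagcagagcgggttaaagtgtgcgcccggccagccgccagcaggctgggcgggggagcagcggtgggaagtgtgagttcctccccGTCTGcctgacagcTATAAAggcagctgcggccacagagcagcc
Fbln1: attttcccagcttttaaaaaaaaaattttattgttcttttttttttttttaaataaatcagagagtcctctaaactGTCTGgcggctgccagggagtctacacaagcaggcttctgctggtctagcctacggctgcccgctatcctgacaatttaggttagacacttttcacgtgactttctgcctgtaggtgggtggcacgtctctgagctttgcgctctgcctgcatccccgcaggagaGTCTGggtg
The Adamtsl2 window holds TATAAA once, beginning 30 bases before the start, where 7.59% of 32851 windows of the same length hold it anywhere. CAGAC occurs 1 time in the Adamtsl2 window and 2 times in the Fbln1 window, and 42.2% of windows hold it. AGAACA, the core letters of corticosteroid receptor elements, was absent from the Adamtsl2 window and occurred 1 time, on the minus strand, in the Fbln1 window shown; 16.1% of all windows hold it. RefSeq gives a second Fbln1 start, whose window at chr15:85205758-85206007 holds no AGAACA and CAGAC 2 times. A match describes letters and not a bound site.

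The genotype comparison under DOC/salt set treated CM MRKO hearts against treated WT hearts. It uses the WT vehicle array only in the normalization. The WT mice carried no Cre, so loss of the receptor and the Cre itself cannot be told apart here. Eln was 1.74-fold higher in CM MRKO hearts than in WT hearts (log2 difference 0.80, technical spread 0.18), and 12 of 6689 genes had a larger difference in the same direction. Adamtsl2 was 1.62-fold higher (0.69). Mfap4, a fibrinogen-related glycoprotein of the microfibril, had intensities of 611.3 in CM MRKO and 405.5 in WT and a difference of 0.57, just under the threshold. Mfap5, a small glycoprotein (MAGP-2) of the same microfibrils, had 554.9 in CM MRKO and 428.5 in WT and a difference of 0.31. In this comparison 2 of the 7 detected genes were called higher and 0 lower, where 0.837% and 0.927% of all tested genes were called. The members and the other lists below were chosen with earlier results of these data known, so such counts are descriptions and not tests. The median of the 7 was 0.31, against 0.02 over all genes. On deposited values Mfap4 passed the threshold as well, for 3 of 7 higher and 0 lower, where 0.419% and 0.164% of genes passed.

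The cross-linking enzymes and fibulin-1 were not called in this comparison. Loxl1, the oxidase that acts chiefly on elastin, read 1858.4 in CM MRKO DOC/salt hearts and 1599.3 in WT DOC/salt hearts, a normalized difference of 0.11. Lox, the founding lysyl oxidase, read 136.7 and 123.2, close to the detection limit, with a difference of 0.01. Fbln1, which encodes the elastin-binding fibulin-1, read 1045.7 in CM MRKO and 1085.9 in WT, a difference of -0.18, within the spread of 0.18. A second detected Fbln1 probe read 312.7 and 277.2, a difference of 0.08. The remaining Fbln1 probe was not detected on any array.

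**Figure D2:**
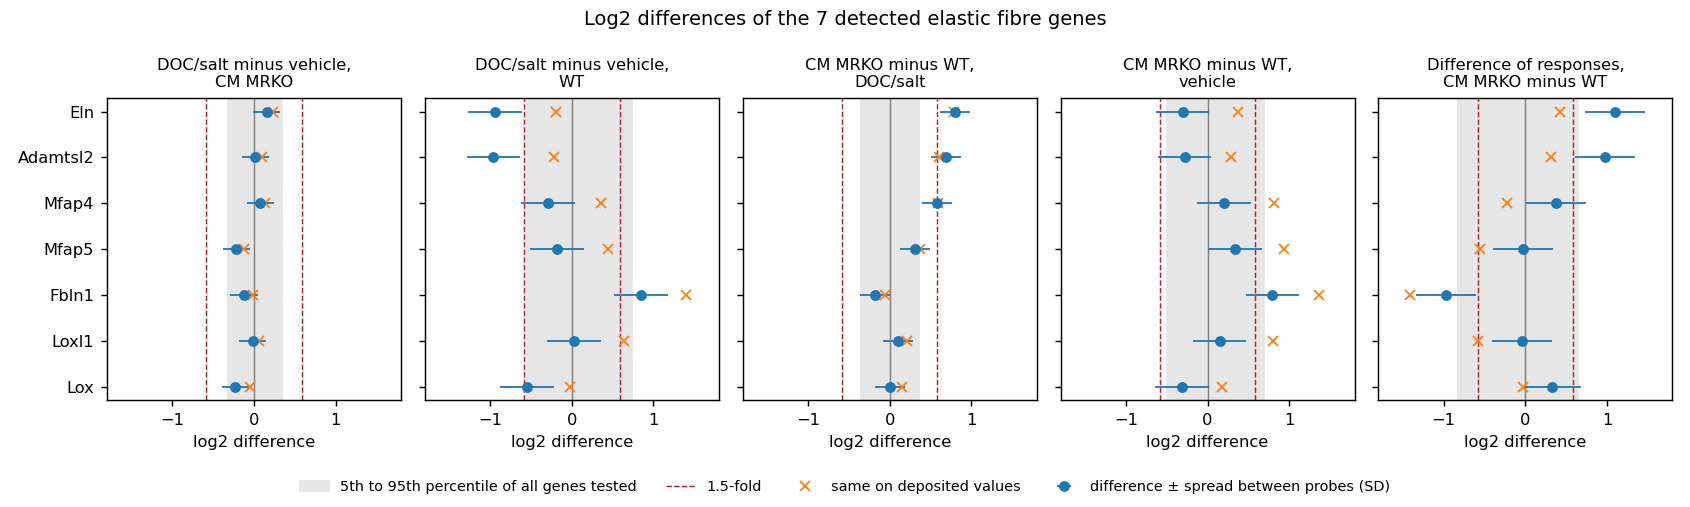
Log2 differences of the 7 detected genes in the 5 comparisons: circles are normalized values with the technical spread (SD between probes of a gene) as bars, crosses the same on deposited values, grey bands the 5th to 95th percentile of all tested genes on normalized values, dashed lines 1.5-fold. The circles of Eln and Adamtsl2 lie outside the band in every comparison that uses the WT DOC/salt array.

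In WT hearts, the response to DOC/salt was a lower value of both these genes. Eln was 1.92-fold lower after DOC/salt than with vehicle on normalized values (-0.94 on the log2 scale) and Adamtsl2 1.94-fold lower (-0.96), with a technical spread of 0.33. Only 10 and 6 of 6391 genes had a larger decrease. Because the WT vehicle array was dim, the size depends on the scale: on deposited values the differences were -0.19 and -0.21, while the median gene was at 0.39. Relative to the median gene of the same setting, Eln was lower by 0.58 to 0.89 and Adamtsl2 by 0.59 to 0.91 over 6 settings of background and scaling (differences of -0.89 to -0.58 and -0.91 to -0.59).

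Fbln1 was called higher in WT hearts by its brighter probe, and its probes differed in size. The brighter probe read 1085.9 after DOC/salt and 410.7 with vehicle, a normalized difference of 0.85 (1.81-fold higher) and a deposited one of 1.40. The other detected probe read 277.2 and 200.6, a normalized difference of -0.07 and a deposited one of 0.47. Both probes thus read more after DOC/salt on the deposited scale, but the median gene was at 0.39 there, close to the other probe's 0.47. After normalization the signs differed. The brighter probe was lowest on the WT vehicle array, and Fbln1 was one of the 169 genes at least 1.5-fold below the other 3 arrays there. The cause of the difference between the probes was not tested.

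Mfap4 read 405.5 after DOC/salt and 315.9 with vehicle in WT hearts, and Mfap5 read 428.5 and 315.8. Their differences were -0.29 and -0.19 after normalization but 0.36 and 0.44 on deposited values, so no direction is given for them. Loxl1 read 1599.3 and 1024.7, with a normalized difference of 0.03 and a deposited one of 0.64. Lox read 123.2 and 125.2, with a normalized difference of -0.55 and a deposited one of -0.02. In total 1 of 7 genes was called higher (Fbln1) and 2 lower, where 8.68% and 3.99% of all genes were called. The split was 1 and 0 with median scaling, where 1944 of 6391 genes were higher and 10 lower. On deposited values it was 2 and 0, where 26.9% and 0.0313% of all genes passed.

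In CM MRKO hearts no elastic fibre gene was called in response to DOC/salt, in either direction, where 0.600% of 6668 genes were called higher and 0.405% lower. None passed on deposited values either, where 0.105% and 0.0150% of genes did. Eln differed by 0.16 and Adamtsl2 by 0.02, both within the technical spread of 0.17. Mfap4 had 611.3 after DOC/salt and 555.1 with vehicle, a normalized difference of 0.08, and Mfap5 had 554.9 and 603.9, a difference of -0.22. Lox stood at 136.7 and 141.8 with a difference of -0.23, and Loxl1 at 1858.4 and 1783.4 with a difference of -0.01. The median over the 7 genes was -0.01, against 0.01 for all genes.

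With vehicle, CM MRKO and WT hearts differed in Fbln1 alone by this rule (1 of 7 higher, 0 lower, where 7.39% and 2.44% of genes were called). The brighter probe read 1056.5 in CM MRKO and 410.7 in WT, a normalized difference of 0.79 and a deposited one of 1.36. The other probe read 257.8 and 200.6, at -0.23 and 0.36 on the same scales. Eln differed by -0.31 and Adamtsl2 by -0.28 on normalized values, and by 0.37 and 0.29 on deposited ones. The genotype difference of Eln minus that of the median gene was -0.26 to -0.07 over 6 settings, within the technical spread of 0.33. Mfap5 read 603.9 and 315.8, a normalized difference of 0.34 and a deposited one of 0.94, and Mfap4 read 555.1 and 315.9, at 0.20 and 0.81. Loxl1 was at 0.15 on normalized and 0.80 on deposited values, and Lox at -0.31 and 0.18. On deposited values 4 of 7 genes were at least 1.5-fold higher and 0 lower, where 29.6% and 0% of all genes were.

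The response to DOC/salt in CM MRKO hearts minus that in WT hearts reuses the same 4 arrays. This difference was 1.10 for Eln, 0.97 for Adamtsl2 and -0.97 for the brighter Fbln1 probe, with a technical spread of 0.37. On deposited values these 3 were at 0.42, 0.31 and -1.42. Of 7 genes 2 were higher and 1 lower, where 6.68% and 10% of all genes were called. On deposited values 0 were higher and 1 lower, where 0.0293% and 20.2% of genes were. The other Fbln1 probe was at 0.30 on normalized and -0.19 on deposited values, Mfap4 at 0.37 and -0.22, and Lox at 0.32 and -0.03, so the sign of these turned with the scale. Mfap5 was at -0.03 and -0.56, and Loxl1 at -0.04 and -0.58, on the same scales.

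**Figure D3:**
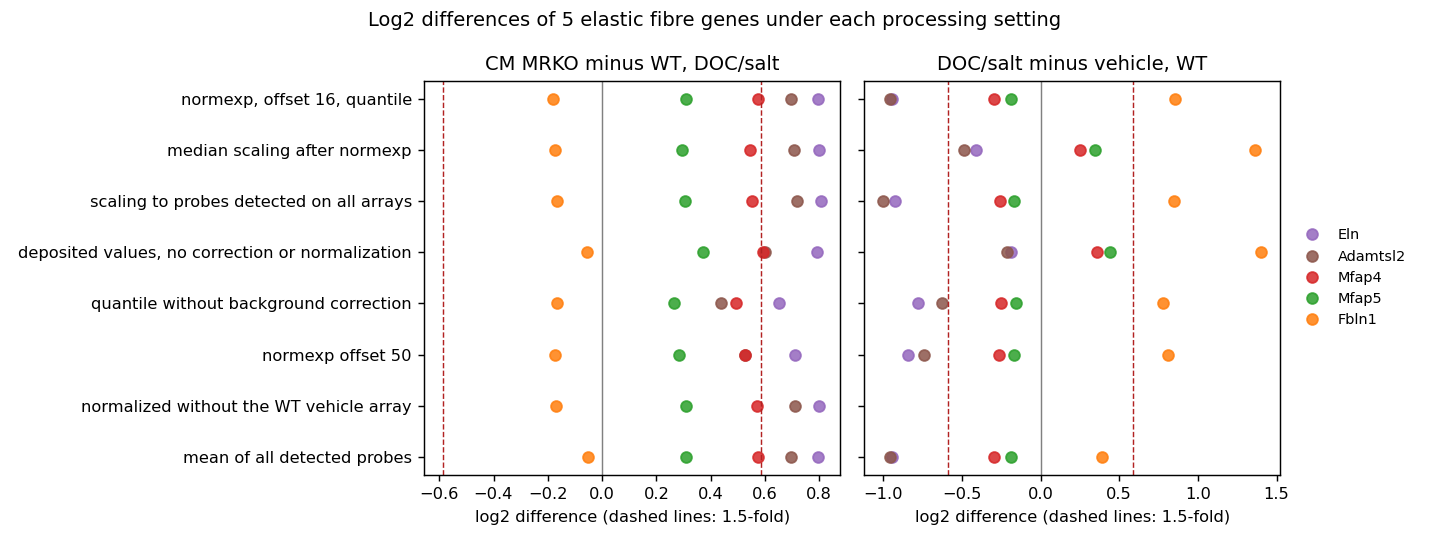
Log2 differences of 5 elastic fibre genes under each setting of background correction, scaling, arrays and probes (rows), for the genotype comparison under DOC/salt (left) and the DOC/salt response of WT hearts (right, where no value exists without the WT vehicle array). On the left Eln stays between 0.65 and 0.81, and on the right Mfap4 and Mfap5 change sign.

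No gene of the other pathway lists was called between the genotypes under DOC/salt, where 0.837% of all genes were called higher and 0.927% lower. In lists of this size, 0 calls are near that share. None of the 4 tested emilins, multimerins and other fibulins was called, including Fbln2 (0.21) and Emilin2 (0.26), which encodes a glycoprotein of the elastin interface. Of 14 further microfibril genes 4 were tested and 0 called, among them Mfap2, which encodes the glycoprotein MAGP-1 of microfibrils, with intensities of 148.6 in CM MRKO and 118.4 in WT (0.32). Of the oxidase and copper supply list 5 of 9 were tested and 0 called, and Loxl2, Loxl3 and Loxl4 were not detected on any array. Pcolce, an enhancer of procollagen processing, was at 0.32. The latent TGF-beta binding and TGF-beta list had 0 of 9 called, with Ltbp4, the family member that supports elastic fibre assembly, at 0.34 (3130.3 in CM MRKO, 2308 in WT) and the ligand gene Tgfb3 at 0.39 (248.2 and 187.6). The TGF-beta target genes Tgfbi and Skil were at -0.17 and -0.12. Of 11 tested elastin-degrading proteases and inhibitors 0 were called; the elastase genes Elane and Mmp12 were not detected, and Ctsk and Timp1 were at 0.33 and 0.38. The list medians ranged from -0.18 to 0.18, against 0.02 for all genes.

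In WT hearts 1 of these pathway genes was lower after DOC/salt, where 3.99% of all genes were called lower and 8.68% higher. It was Tgfb3 at -0.71 (187.6 after DOC/salt, 192.1 with vehicle), which was -0.03 on the deposited values. Mfap2 was at -0.57 and -0.04 on the same scales. Higher values were found for Skil (0.71 normalized, 0.70 deposited), the protease gene Ctsb (3.23 and 3.18, with intensities of 1317.9 after DOC/salt and 145.6 with vehicle) and the protease inhibitor gene Cst3 (0.89 and 1.42). These 3 were lowest on the WT vehicle array. In CM MRKO hearts none of the pathway lists had a gene called after DOC/salt, where 0.600% of all genes were called higher and 0.405% lower.

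No marker of smooth muscle or fibroblasts was called in the genotype comparison under DOC/salt, where 0.837% of all genes were called higher and 0.927% lower. Of 8 smooth muscle markers 5 were detected on all arrays, 0 were called and the median was 0.21. Their summed normalized level was 18097 in CM MRKO and 15573 in WT. Acta2, Des and Smtn were the brightest of them, and Myh11 read 161.2 and 133.8. Acta2 was at 0.33, Smtn at 0.30, Myh11 at 0.21 and Des at -0.08, all under the threshold. The sum is that of these 5 genes and was not tested as a measure of smooth muscle content. The smooth muscle genes Tagln, Cnn1 and Lmod1 were not detected. Of 10 fibroblast markers 8 were tested and 0 called, with a median of 0.13, and the summed level of the 7 detected on all arrays was 6301 in CM MRKO and 6302 in WT. Col1a1 of collagen type I was at 0.43, and Col3a1 was not detected. Of the atrial genes, Myl4, an atrial myosin light chain, was called higher at 0.63 (288.4 in CM MRKO, 191.8 in WT), and Nppa, the atrial natriuretic peptide gene, was at 0.57, under the threshold (19893 and 11967). The summed normalized level of these 2 of 4 markers was 17464 in CM MRKO and 11719 in WT, and Myl7 and Sln were not detected. Nppa was by far the brighter of the 2, and the sum was not tested as a measure of atrial content. The epicardial genes Wt1 and Upk3b were at 0.36 and 0.55, with Upk3b undetected on the WT DOC/salt array. The neutrophil list had 4 of 4 tested members called higher, where 0.837% of all genes were. Retnlg (106.8) and Ltf (85.4) were under the limit of 113.7 on the WT DOC/salt array. They were thus tested only through the CM MRKO array, where they are high. The others, S100a8 and S100a9, were at 1.25 and 0.68. Markers also differed in the WT response. The atrial gene Myl4 (-0.76 normalized, -0.06 deposited) and the epicardial gene Upk3b (-0.75 and -0.14) were called lower, as Eln and Adamtsl2 were. Called higher were the fibroblast genes Dcn (2.88) and Pdgfra (0.74), the endothelial gene Tek (0.60) and Pln (2.02). So were the neutrophil genes S100a8 (0.94) and S100a9 (1.02), and the blood and platelet genes Ppbp (1.94), Hbb-bt (1.11) and Alas2 (0.93). Over all genes, 8.68% were called higher and 3.99% lower. Pln, S100a9, Ppbp and Hbb-bt were undetected on the WT vehicle array, so their differences are against background. Their deposited differences were 1.31, 0.77, 1.53 and 0.84. Dcn, Pdgfra, Tek, S100a8 and Alas2 were detected on the WT vehicle array but also read lowest there. Dcn read 395.2 on it and 3886.7 to 4135.2 on the other arrays, and Pdgfra 132.8 and 243.9 to 254.5. Between the genotypes with vehicle, Dcn was at 2.92 and Pdgfra at 0.68. Whether these differences come from the treatment or from that array was not tested. No smooth muscle marker was called, with a median of -0.21 over 5 tested. Summed normalized levels were 15573 after DOC/salt and 20390 with vehicle for smooth muscle. They were 6302 and 3099 for fibroblasts, and 11719 and 14975 for atrial genes. These sums weigh bright genes most. Dcn alone read 3886.7 after DOC/salt and 395.2 with vehicle as deposited. Besides Pdgfra, the fibroblast genes Dpt and Vim were at 0.26 and 0.18, and Col1a1, Lum and Tcf21 at -0.002, -0.18 and -0.34. The brightest gene of the smooth muscle sum was Acta2, with deposited intensities of 9035 and 9421 (-0.47 normalized, -0.06 deposited). Nppa was the brightest of the atrial sum, with deposited intensities of 11967 and 11353 (-0.35 normalized, 0.08 deposited). In the CM MRKO response, the fibroblast gene Col1a1 (0.68) and the neutrophil genes S100a8 (0.78) and Retnlg (0.69) were called higher and no marker lower. The part of any of these cell types in the Eln and Adamtsl2 values was not tested.

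Over the 5471 genes detected on all arrays, Adamtsl2 had the profile most like that of Eln, with a Euclidean distance of 0.11 between the centred normalized log2 values of the 4 arrays. It was followed by Myl4 (0.14), Bace2, a protease gene (0.15), Rrp9, a gene of ribosomal RNA processing (0.16), and Mtor (0.17). The other elastic fibre genes were farther away, with Mfap4 405th and Fbln1 5328th in the order of likeness. Adamtsl2 was between 1st and 4th under the other settings of background and scaling, and 6th on the deposited values. With 4 arrays many genes can share a profile, and the likeness is a description of these pools.

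**Figure D4:**
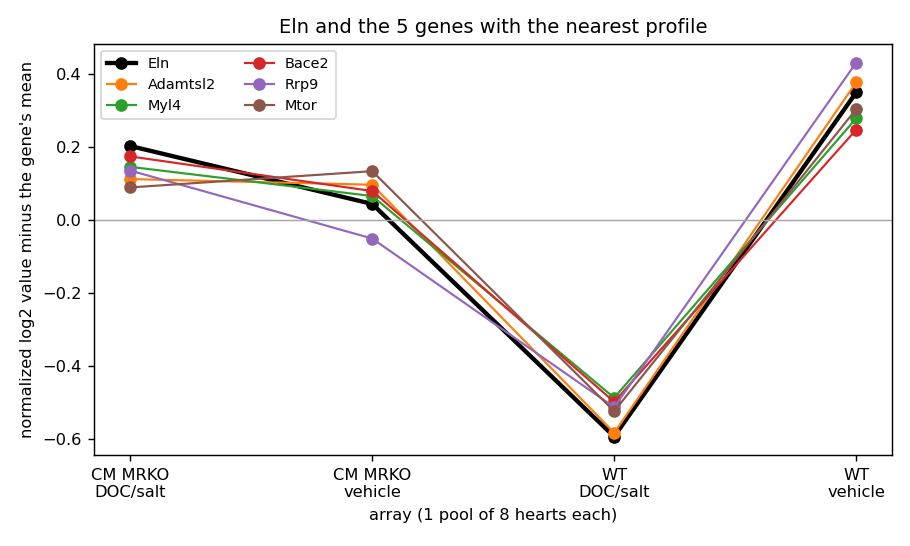
Normalized log2 value of Eln (black) and of the 5 genes with the nearest profile, each minus its own mean, on the 4 arrays. All 6 genes were lowest on the WT DOC/salt array, at -0.59 for Eln and -0.58 for Adamtsl2.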

How the data were processed

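Whole-heart RNA pools were measured on single-channel Illumina bead arrays, 1 array per group. The authors' deposited values are linear intensities whose medians differ between arrays. The submitters' processing notes name Partek without saying what it did. Another deposited table, of 4 columns, was left out, as no label matches its headings. The treatment protocol names vehicle for all samples; groups were taken from source names.

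Intensities were corrected with normexp (maximum likelihood, offset 16), quantile normalized and put on the log2 scale with limma 3.58.1 (R 4.3.3). A probe was detected where under 0.01 of 1341 chemosensory receptor probes were at least as bright. The probe brightest on average stood for its gene, and genes undetected on every array of a comparison were left out of it. Calls were made at 1.5-fold. The technical spread is the SD of the difference between the 2 brightest detected probes of a gene, divided by the square root of 2 (1064 to 1254 genes). The number of arrays limits the precision. Probe names came from the platform annotation, in which 1719 of 25697 probes have no name, and no probe coordinates are printed. All 10 members were named, with up to 4 detected genes of each other list by the size of the difference and the 5 genes nearest to Eln; Myh6, undetected genes and the genes low on the WT DOC/salt array are named outside this rule. Members and lists were chosen with earlier results of these data known. The steps were tested on simulated data.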

Additional observations from a re-analysis of the deposited data

Results flagged for a closer look

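For 3 genes the DOC/salt response had opposite signs in the genotypes on both normalized and deposited values, and the difference was not tested, since each group is 1 pool. The response in CM MRKO minus that in WT was 1.10 for Eln (0.16 and -0.94), 0.97 for Adamtsl2 (0.02 and -0.96) and -0.97 for Fbln1 (-0.12 and 0.85). On normalized values the CM MRKO responses of all 3 were within the technical spread of 0.17, and the WT responses were beyond theirs of 0.33. On deposited values the CM MRKO responses were 0.23 for Eln, 0.10 for Adamtsl2 and -0.01 for Fbln1. The WT responses there were -0.19, -0.21 and 1.40. For Fbln1 the other detected probe gave 0.30 on normalized and -0.19 on deposited values.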

How the results depend on the processing

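The processing was varied in 9 planned ways, and normalization without the WT vehicle array was added after the data were seen. Under DOC/salt, Eln was 1.5-fold higher in CM MRKO in all 9 settings that keep this threshold (0.65 to 0.81), and Adamtsl2 in 7 of 9 (0.44 to 0.72): 1 gene was called higher without background correction or with an offset of 50, 3 on deposited values (with Mfap4) and with no detection filter (with Fbln5, which is undetected), and 0 at 2-fold. In the WT response, scaling to detected probes gave 3 lower (with Lox), median scaling gave 0 lower and a median of 0.25, and deposited values 2 higher, 0 lower and a median of 0.36; 2 were higher with no detection filter, 0 with averaged probes, and 0 in either direction at 2-fold. With vehicle, 4 genes were higher in CM MRKO with median scaling (median 0.60) and on deposited values (median 0.80), where 1733 and 1886 of 6364 genes were higher and the median of all genes was 0.37 and 0.44, and 0 with averaged probes or at 2-fold. In the difference of responses, median scaling gave 1 higher and a median of -0.17, deposited values 0 higher and a median of -0.22, no filter 3 higher and 2 lower, averaged probes 0 lower, and 2-fold 1 higher and 0 lower. The cause was not tested, apart from fewer genes at a stricter threshold and the second Fbln1 probe in the average. Among all genes, the counts higher and lower were 555 and 255 in the WT response, 1944 and 10 with median scaling, and 369 and 466 with scaling to detected probes; for the difference of responses they were 456 and 686, 69 and 1983, and 835 and 456. Over all settings the higher and lower counts were 5 to 205 and 10 to 188 between genotypes under DOC/salt, 131 to 1886 and 0 to 464 with vehicle, 5 to 169 and 1 to 176 in the CM MRKO response, 138 to 1944 and 2 to 558 in the WT response, and 2 to 1208 and 190 to 1983 for the difference of responses. No called member changed sign. Signal over background limits Lox, Fbln5 and Ltbp2. No paired analysis was possible because each group has 1 array.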
